A study of Mus musculus with 13 samples.

Results

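Acetylation of lysine 27 of histone H3 (H3K27ac) was profiled by ChIP-seq in mouse macrophages, and 3574 of 40691 deposited regions were selected as lowered by LPS and not brought back by IL-10 under either of the tested schedules. These regions are called members below. The members were chosen on measured values, with the mean log2(value + 1) of each group of libraries. A region had to be under 20000 bp wide, lie at least 2 lower on the log2 scale with LPS than in untreated cells, and have its highest LPS library below its lowest untreated library. Both the continuous and the late IL-10 mean had to exceed the LPS mean by less than 1. Of 38900 regions under 20000 bp, 6600 met the conditions on LPS alone (17%), and the 3574 members were 54.2% of those. The remaining 3026 gained 1 or more on the log2 scale with at least 1 IL-10 schedule.

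The cells were bone marrow-derived macrophages of genotype IL10-/-RAG2-/- on the 129S6/SvEvTac strain, grown from marrow precursors for 5 days in medium with M-CSF, the growth factor of macrophages. All groups carry both deletions, so none of the cells can make IL-10 and the animals had no mature T or B cells. The late IL-10 group (3 libraries) had LPS at 1 ng/mL for 195 min with IL-10 added for the last 30 min. Its IL-10 dose is not stated separately in the labels. The continuous IL-10 group (3 libraries) had LPS at 1 ng/mL and IL-10 at 1 ng/mL together for 195 min. The LPS group (3 libraries) had LPS at 1 ng/mL for 195 min, and the untreated group (3 libraries) had neither agent. Per the labels, 3 independent macrophage pools were used. How many animals went into a pool is not stated there.

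H3K27ac is laid down by the acetyltransferases p300 and CBP at active promoters and enhancers and is taken off by histone deacetylases, so its level is used as a readout of regulatory activity. LPS, a lipopolysaccharide of the bacterial outer membrane, is sensed by TLR4 and activates NF-kB, AP-1 and interferon regulatory factors. In macrophages it is known to add H3K27ac at inflammatory genes and to remove it from many enhancers of the resting cell. IL-10 is an anti-inflammatory cytokine that signals through STAT3 and is known to dampen many of the genes that LPS induces.

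Each deposited value is a count of whole reads multiplied by its library's scaling factor, and no value lies below 1 read. The reads so recovered over all regions were between 5149730 and 26922552 per library. Between 19.7% and 29.9% of a library's regions lay at exactly 1 read, the lowest value in the table. The sources used here do not say whether background reads were subtracted first, so a region at 1 read is not shown to be free of H3K27ac. All 8 macrophage markers examined, among them Csf1r, Adgre1, Spi1 and Lyz2, overlapped regions with an untreated mean above 100. The summed value of this list was 32801 to 42282 with late IL-10, 37701 to 43502 with continuous IL-10, 35791 to 51979 with LPS and 35481 to 47042 in untreated cells, so the groups overlapped. No region of the table overlapped Cd8a, Cd3g, Pax5, Mpo or Ly6g. Other genes of the same lists did carry signal. The highest untreated mean was above 100 at 3 of 9 T cell, 2 of 6 B cell and 5 of 8 neutrophil markers. It reached 2371 at Ms4a1 and 1734 at Mmp8. The summed neutrophil markers, of which 6 of 8 had a region, lay at 2267 to 2690 with LPS, below 2907 to 4350 in untreated cells. They lay at 2568 to 3015 with late IL-10 and 3593 to 4016 with continuous IL-10. The B cell markers, of which only Cd79a and Ms4a1 had a region, lay at 1538 to 1914 with LPS, below 2500 to 3245 in untreated cells. Their sums were 1983 to 3066 with late IL-10 and 1797 to 2541 with continuous IL-10. The T cell list, with a region at 5 of 9 genes, was higher with LPS at 667 to 853, against 442 to 623 in untreated cells. It was at 916 to 1192 with late IL-10, above the other groups, and at 396 to 579 with continuous IL-10. The fibroblast list, with a region at 3 of 7 genes, lay at 3506 to 4391 with late IL-10, 5846 to 6284 with continuous IL-10 and 4022 to 5697 with LPS, all below 7236 to 9764 in untreated cells. Its level came from Pdgfrb, with an untreated mean of 8120 at its strongest region, against 0.795 at Col1a1 and at Dcn. The region of Csf1r, in the macrophage list, had the same untreated mean of 8120. This list is therefore no measure of fibroblasts apart from macrophages. The part of other cell types in the members was not tested.

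Few members were promoters, and this was so for all regions lowered by LPS. A start of a protein-coding gene lay inside 215 members, 6.02%, against 20.9% of all regions under 20000 bp. The share was 6.32% over all regions lowered by LPS. It was 7.36% in those restored by continuous IL-10 only, 4.50% by late IL-10 only and 6.40% by both. To show what lies under the strongest members with a start, 5 promoters are printed from RefSeq (build GRCm38.p6, the same assembly as mm10), from 250 bases before to 50 bases after the start, on the strand of the gene. Capitals mark matches to the motif letters named after the sequences. The first 4 are from the members of highest untreated level that contain a start, and the last, Tlr5, was chosen after its values were seen.
Tmem37 (chr1:120073731-120074030, minus strand): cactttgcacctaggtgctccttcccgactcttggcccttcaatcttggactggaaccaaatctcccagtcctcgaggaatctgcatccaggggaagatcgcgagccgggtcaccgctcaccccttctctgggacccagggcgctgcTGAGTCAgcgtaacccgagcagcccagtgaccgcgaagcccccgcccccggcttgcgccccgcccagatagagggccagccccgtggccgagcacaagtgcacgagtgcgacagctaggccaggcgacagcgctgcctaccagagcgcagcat
Ago4 (chr4:126533409-126533708, minus strand): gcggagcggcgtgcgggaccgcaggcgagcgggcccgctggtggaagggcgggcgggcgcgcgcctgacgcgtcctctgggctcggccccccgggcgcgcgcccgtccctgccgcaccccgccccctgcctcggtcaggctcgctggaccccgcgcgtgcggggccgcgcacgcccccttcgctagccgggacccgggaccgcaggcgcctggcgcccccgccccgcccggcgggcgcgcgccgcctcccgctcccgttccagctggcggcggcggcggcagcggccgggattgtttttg
Aph1c (chr9:66834657-66834956, minus strand): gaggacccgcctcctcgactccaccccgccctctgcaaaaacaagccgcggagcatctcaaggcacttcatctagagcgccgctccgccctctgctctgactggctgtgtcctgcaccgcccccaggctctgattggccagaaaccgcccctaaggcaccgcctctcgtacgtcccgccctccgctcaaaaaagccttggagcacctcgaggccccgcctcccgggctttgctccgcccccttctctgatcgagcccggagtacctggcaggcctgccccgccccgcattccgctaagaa
Tekt3 (chr11:63061409-63061708, plus strand): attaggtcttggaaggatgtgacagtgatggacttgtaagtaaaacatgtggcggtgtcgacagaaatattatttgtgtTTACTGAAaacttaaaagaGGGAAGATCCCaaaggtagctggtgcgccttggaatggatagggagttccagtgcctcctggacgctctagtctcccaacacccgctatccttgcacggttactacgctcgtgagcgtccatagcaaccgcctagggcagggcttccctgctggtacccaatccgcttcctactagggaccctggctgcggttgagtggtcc
Tlr5 (chr1:182954538-182954837, plus strand): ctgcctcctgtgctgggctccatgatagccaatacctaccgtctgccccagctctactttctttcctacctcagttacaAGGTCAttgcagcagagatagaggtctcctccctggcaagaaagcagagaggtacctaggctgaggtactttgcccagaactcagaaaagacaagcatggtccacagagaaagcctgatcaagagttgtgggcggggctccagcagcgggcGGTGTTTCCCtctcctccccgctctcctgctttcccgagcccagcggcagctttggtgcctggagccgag

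The letters searched on both strands were GAGGAAGT for PU.1, TGANTCA for AP-1, TTNCNNAA for C/EBP, GGGA followed by 4 bases of any kind and CC for NF-kB, a pair of GAAA with 2 bases of any kind between them for the interferon-stimulated response element, TTCCNGGAA for STAT, CACGTG for the E-box, GGGTGTGG for KLF and AGGTCA for nuclear receptors. The AP-1, STAT and E-box letters read the same on both strands. The capitals mark an AP-1 match in Tmem37, a C/EBP match and overlapping NF-kB matches on both strands in Tekt3, and a nuclear receptor and an NF-kB match in Tlr5. The windows of Ago4 and Aph1c held none of these letters. The 5 windows differed in base composition, with 83.3% G and C in the Ago4 window and 52% in that of Tekt3.

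Across all 257 promoter windows that lay inside members, the median share of G and C was 56% and the median number of CpG dinucleotides 12. The 10685 windows inside any region under 20000 bp had medians of 61.3% and 21. The windows inside regions that IL-10 did raise, 254 in all, were close to the members, with 56.3% and 12. The C/EBP letters were present in 38.5% of member windows, against 30.9% of the windows in all regions and 37.3% of all 21263 coding-gene windows in the table. AP-1 letters were found in 7.0% of member windows, against 4.74% of the windows in all regions and 6.99% of all coding-gene windows. Nuclear receptor letters were found in 14.8%, against 11.4% and 14.7%. PU.1 letters were in 4.67% of member windows, against 3.02% and 3.13%. In the windows of regions that IL-10 did raise, PU.1 letters were in 5.12% and C/EBP letters in 40.6%, both above the members. NF-kB letters were present in 24.1% of member windows and 26.6% of all. The interferon-stimulated response element was found in 3.50% against 3.27%, STAT letters in 1.56% against 1.28%, the E-box in 10.9% against 10.4% and KLF letters in 3.11% against 3.72%. A match is a run of letters and not a site shown to be bound.

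In each of the 9 stimulated libraries the median member lay at 1 read, against median values of 75.6, 59.9 and 53.6 in untreated replicates 1, 2 and 3. Members held 0.385% to 0.671% of a library's summed value with late IL-10, 0.598% to 1.03% with continuous IL-10, 0.509% to 0.887% with LPS, and 4.82% to 6.71% in untreated cells, so no stimulated library overlapped an untreated one. The median difference of LPS minus untreated was -3.41 on the log2 scale, with an interquartile range of -4.35 to -2.75 and extremes of -9.38 and -2.001. Fewer cells with the mark and less mark per cell cannot be told apart in such bulk libraries. These differences chose the members and carry no test. The rule also put every LPS library of a member below its untreated ones, and its bounds left IL-10 little room to differ. All continuous IL-10 libraries lay below all untreated ones in 3358 of the 3574 members, and all late ones in 3452. Over the 38900 regions under 20000 bp the counts were 8566 and 9499. Where a named member or a sum of members shows this gap below, it is no separate result. Such regions are labelled silenced, but a region at 1 read is not shown to be free of H3K27ac. All 3 LPS libraries were at 1 read in 1476 members (41.3%). The share was 34.3% over all regions lowered by LPS and 11.3% over all regions under 20000 bp. As a share of the untreated mean the median member kept 7.66% with LPS.

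**Figure D1:**
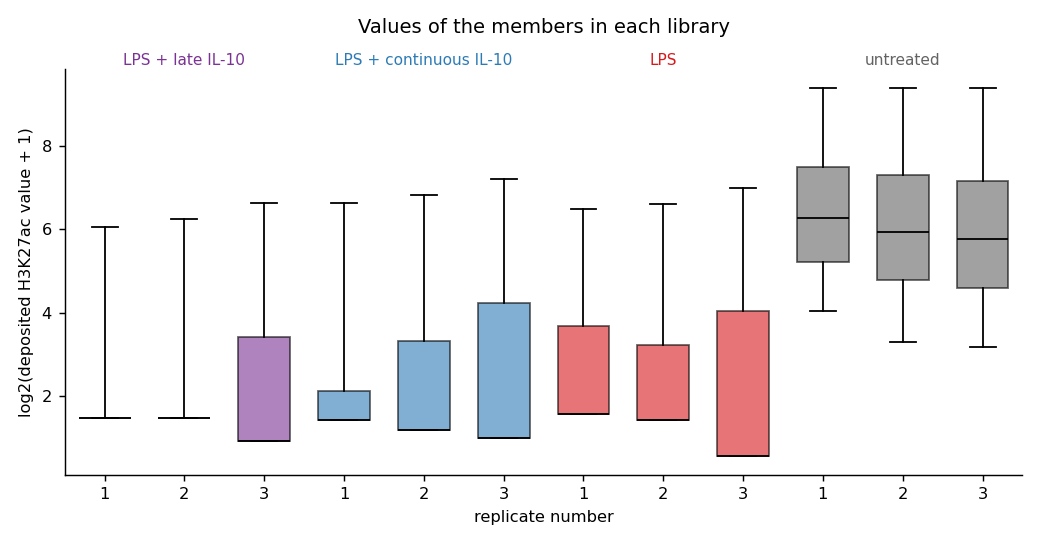
Box plot of log2(deposited value + 1) of the 3574 members in each of the 12 libraries, by group and replicate number, with the box at the interquartile range, the line at the median and the whiskers from the 5th to the 95th percentile. In the 9 stimulated libraries the median lies at 1 read, whose value differs with each library's scaling, and the 3 untreated boxes lie above all 9 stimulated ones.

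Had the members stayed at their untreated level, the median member would have held 36.2, 35.6 and 72.0 reads in late IL-10 replicates 1, 2 and 3. It would have held 37.8, 50.2 and 64.7 reads with continuous IL-10, and 32.4, 38.0 and 138 reads with LPS. The member with the least would have held 4.51 reads in LPS replicate 1, so the weakest members rest on few reads.

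With IL-10 the median member did not move by more than the scaling. The median of late IL-10 minus LPS was 0.11 and that of continuous IL-10 minus LPS was 0.02. These equal the values, 0.107 and 0.0188, that a region at 1 read in all libraries of both groups takes from the scaling factors. Late IL-10 left 1797 members (50.3%) at 1 read in all 3 libraries, continuous IL-10 left 1402 (39.2%), and 932 members (26.1%) were at 1 read in all 9 stimulated libraries. Over all regions under 20000 bp these shares were 11.8%, 12.2% and 4.73%. The bounds of the rule favour such regions. As a share of the untreated mean, the median member lay at 5.67% with late IL-10, 6.89% with continuous IL-10 and 7.66% with LPS.

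A smaller set stayed measurable throughout. In 304 members (8.51%) all 9 stimulated libraries lay above 1 read. These were wider, with a median of 7551 bp against 2802 bp for the 932 members at 1 read throughout, and 17.8% contained a gene start against 1.82%. They were also stronger in untreated cells, with a median log2 value of 8.95 against 5.26. A stronger region stays above 1 read after the same fall. The part of this level in width and gene starts was not tested. The median difference of the 304 was -2.43 for LPS minus untreated, 0.44 for continuous IL-10 minus LPS and -0.14 for late IL-10 minus LPS. They lay at a median of 17.2% of the untreated mean with late IL-10, 23.0% with continuous IL-10 and 20.0% with LPS. Continuous IL-10 was above LPS in 225 of the 304, and late IL-10 in 121. Both shares are bounded from above by the choice of members.

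Some members were lower with IL-10 than with LPS alone. Late IL-10 lay 1 or more below LPS on the log2 scale in 531 members (14.9%), against 15.6% of all regions under 20000 bp, and continuous IL-10 did so in 313 (8.76%), against 21.3% of all regions. A member near 1 read with LPS cannot go lower, so these counts are limited by the lowest value in the table.

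**Figure D2:**
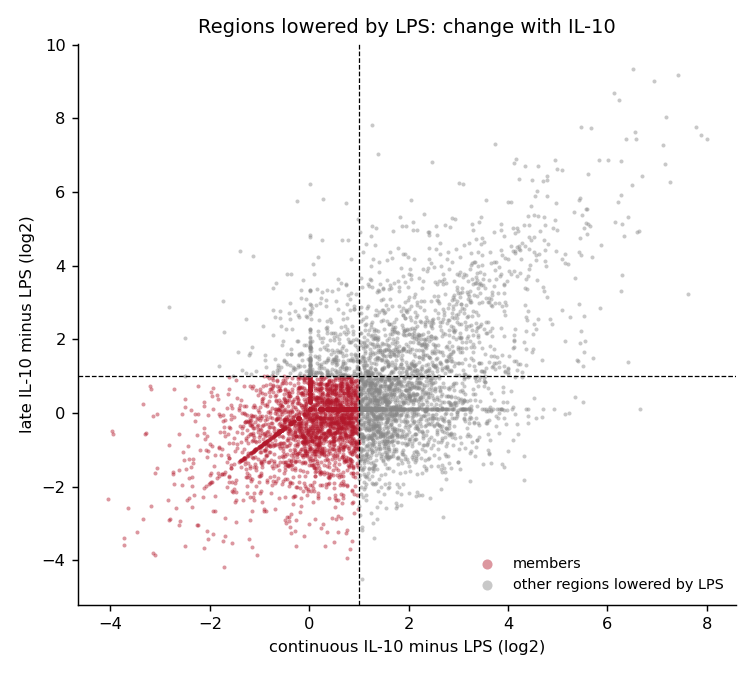
Scatter plot of the 6600 regions under 20000 bp lowered by LPS, with continuous IL-10 minus LPS on the x axis and late IL-10 minus LPS on the y axis, both on the log2(value + 1) scale, and dashed lines at the bound of 1. The 3574 members fill the lower left, the other 3026 regions lie past a bound, and the straight lines of points are regions at 1 read in a group.

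The 3026 other LPS-lowered regions were 1616 that gained 1 or more with continuous IL-10 only, 378 with late IL-10 only and 1032 with both. The median width was 3022 bp for the members, 3180.5 bp for the regions restored by late IL-10 only, 3943.5 bp for those restored by continuous IL-10 only, 4682 bp for those restored by both and 2915 bp for all regions under 20000 bp. By width class, members were 73.4% of the LPS-lowered regions under 1000 bp, 63.4% from 1000 to 2000 bp, 58.4% from 2000 to 4000 bp, 46.8% from 4000 to 8000 bp and 41.0% from 8000 to 20000 bp. The untreated level had a median log2 value of 5.90 in members, 5.96 in the regions restored by late IL-10 only, 6.85 in those restored by continuous IL-10 only and 6.93 in those restored by both. The part of width and level in this order was not tested.

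The bounds cut through a continuous range. Just inside the bound on LPS were regions of Ube2q1 at -2.001, Ppp5c at -2.002 and Tcp11l1 at -2.002, and just outside were Pgm2 at -1.998, Tec at -1.996 and Ranbp9 at -1.996. For continuous IL-10 minus LPS, a region with no gene within 100 kb at 0.998, Capzb at 0.999 and Ascc2 at 0.997 lay inside, and Pcp4l1 at 1.002, Snx29 at 1.002 and Pml at 1.003 outside. For late IL-10 minus LPS, Bcor at 0.998, Arrdc3 at 0.997 and Grm4 at 0.996 lay inside, and Shisal1 at 1.0001, Myrfl at 1.001 and Rec114 at 1.004 outside. Of the members, 582 had an LPS difference above -2.5, 777 had a continuous IL-10 difference above 0.5 and 384 a late IL-10 difference above 0.5. A further 707 regions met all conditions but the gap between LPS and untreated libraries, and 95 all but the width.

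To see the same values where they had not done the choosing, the rule was applied to 2 replicate numbers and read in the replicate left out. The other pools chose 3246, 3939 and 4173 regions when replicates 1, 2 and 3 were left out. In the left-out replicate their median LPS minus untreated difference was -3.59, -3.25 and -3.26, while over all regions under 20000 bp it was -0.10, 0.25 and 0.05. The LPS library was below the untreated one in 97.4%, 90.7% and 94.7% of the chosen regions, against 51.9%, 43.8% and 48.9% of all regions.

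The IL-10 conditions separated the chosen regions less in the left-out replicate. Late IL-10 stayed less than 1 above LPS in 90.5%, 91.0% and 87.9% of the chosen regions, against 82.5%, 84.7% and 80.6% of all regions. Continuous IL-10 did so in 84.4%, 78.7% and 75.3%, against 79.8%, 77.5% and 77.7%, and in replicate 3 this share was below that of all regions. All 3 conditions on the means held together in 62.6%, 51.6% and 46.6% of the chosen regions, against 12.3%, 9.32% and 8.71% of all regions. A region at 1 read in both libraries counts as less than 1 above LPS in these shares. The median IL-10 differences of the chosen regions were those of such a region. With 1 library a group in each replicate these are descriptions with no p.

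**Figure D3:**
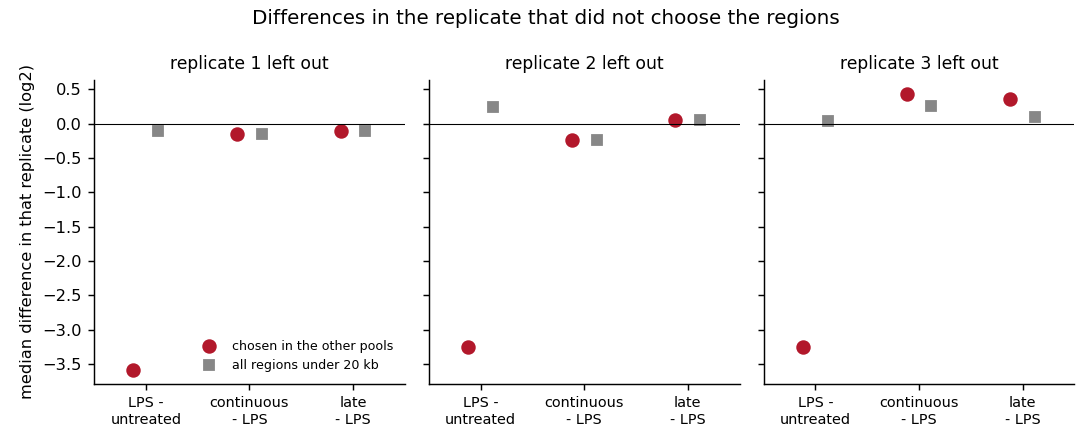
Median log2 differences in the replicate that did not choose the regions, with 1 panel per left-out replicate, circles for the regions chosen in the other pools and squares for all regions under 20000 bp. The LPS minus untreated circles lie between -3.59 and -3.25, far below the squares. The circles for late and continuous IL-10 minus LPS equal the difference that a region at 1 read in both libraries takes from the scaling factors. They therefore describe the scaling and not a response to IL-10. In replicates 1 and 2 the squares have the same values as the circles. In replicate 3 circle and square lie at 0.37 against 0.10 for late IL-10 and at 0.44 against 0.25 for continuous IL-10.

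The schedules could be tested against each other, since the difference between late and continuous IL-10 was no condition of the rule, although both were held under the same bound over LPS. With limma and Benjamini-Hochberg adjustment over 36621 regions, 3 of the 3103 members tested (0.0967%) were higher with late than with continuous IL-10 and 13 (0.419%) were lower. Over all tested regions 1.86% were higher and 0.852% lower. The IL-10 dose of the late group is not stated, so timing and dose cannot be told apart here. The bound on both schedules limits how far they can differ at a member. The filter used the mean of all 12 libraries, so members could pass it through their untreated values. Of all members, 1797 were at 1 read in every late IL-10 library and 1402 in every continuous one. A region at 1 read in both groups shows only the scaling and cannot be called. The lower share of calls in members was thus partly set by their choice, and no conclusion is drawn from it. This fit leaves out the pairing of libraries by replicate number, and the adjusted p-values below come from it. With the replicate number as a block, 16 members were higher (0.516%) and 79 lower (2.55%), against 8.02% and 4.96% of all regions.

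At the 6 called members of largest difference, all lower with late IL-10, most late IL-10 libraries were at or near 1 read. Nearest to Mrps28, a mitochondrial ribosome gene, a region 50.7 kb away at chr3:8741007-8751437 had 1.76, 12.5 and 0.886 with late IL-10 and 152, 198 and 40.4 with continuous IL-10. The groups did not overlap, and the difference was -4.71 (SE 0.84, limma adjusted p = 0.0147). In the same region LPS gave 51.2, 124 and 38.5, against 694, 685 and 681 in untreated cells. Over Fer, a gene of a cytoplasmic tyrosine kinase, at chr17:63919230-63925079, the values were 1.76, 1.79 and 1.77 with late IL-10 and 35.4, 45.7 and 52.2 with continuous IL-10, a difference of -4.02 (SE 0.69, limma adjusted p = 0.0129). LPS alone gave 41.3, 30.2 and 13.4 there, against 461, 325 and 254 in untreated cells.

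The other 4 were nearest to Lyplal1 at -4.53, Rasgrf1 at -4.33, Gnpda1 at -4.00 and, at chr2:117836620-117844116, a region with no gene within 100 kb at -3.95, with adjusted p-values from limma between 0.0129 and 0.0331. The continuous IL-10 means of these 6 lay 0.49 to 0.85 above LPS, under the bound of 1. The 3 members that were higher with late IL-10, named after their values were seen, lay at Lrrk1 (3.82) and nearest to Umodl1 (3.58) and Tmem154 (3.48), with limma adjusted p between 0.0289 and 0.0348. Leaving out late IL-10 replicate 1 ended all 16 calls of limma. Of the 3237 members then tested, 116 had an unadjusted limma p under 0.05, and no support is drawn from that count.

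The 10 members with the highest untreated level were long regions that kept a measurable level with LPS. At the strongest, chr17:84175129-84192127 over Zfp36l2 and Thada, late IL-10 gave 521, 595 and 918, continuous IL-10 932, 1266 and 1877, LPS 378, 573 and 1643 and untreated cells 2647, 2759.5 and 4816. Zfp36l2 encodes an RNA-binding protein that promotes the decay of AU-rich messages. The LPS mean was 25.4% of the untreated mean, and LPS replicate 3 stood well above the other LPS libraries.

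The region of Tmem37, whose promoter is printed above, spans chr1:120070894-120086737 and had 241, 78.8 and 348 with late IL-10, 320.4, 161 and 736 with continuous IL-10, 303, 187 and 591 with LPS and 2120.1, 1810.3 and 3312 in untreated cells. All 9 stimulated libraries were below the lowest untreated one, which the rule sets for LPS, and both IL-10 groups overlapped LPS. By replicate number, late IL-10 was below LPS in all 3, and continuous IL-10 above it in replicates 1 and 3 and below it in replicate 2. Both of the regions assigned to Tmem37 were members. Ago4 encodes an Argonaute protein that binds small RNAs. Its region at chr4:126530855-126546634 had 56.4, 165 and 563 with late IL-10, 337, 577 and 1282 with continuous IL-10, 242, 254 and 626 with LPS and 1873, 1767 and 2193 in untreated cells. Continuous IL-10 lay 0.90 above LPS on the log2 scale, just under the bound, and late IL-10 lay -0.95 from it. Continuous IL-10 was above LPS and late IL-10 below it in every replicate number.

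Aph1c encodes a subunit of gamma-secretase, and its region had 338, 720.3 and 399 with late IL-10, 516, 810.4 and 529 with continuous IL-10, 389.6, 578 and 303 with LPS and 1461, 2304 and 1392 in untreated cells. Tekt3, a tektin gene known from sperm flagella, had 2 members, and the stronger had 261, 512 and 163 with late IL-10, 551, 531 and 355 with continuous IL-10, 279, 551 and 208 with LPS and 1899.6, 2067 and 1176 in untreated cells. In both regions all stimulated libraries lay below all untreated ones, which the rule sets for LPS. The stimulated means were 18.2% to 36.0% of the untreated mean.

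Rell1, which encodes a relative of the TNF receptor family member RELT, behaved differently among the pools. The strongest of its 3 members had 342, 197 and 22.1 with late IL-10, 1.69, 26.7 and 37.5 with continuous IL-10, 301, 163 and 32.9 with LPS and 1867, 2178 and 1439 in untreated cells. Continuous IL-10 was -3.07 from LPS, lower in replicates 1 and 2 and close to it in replicate 3. The regions over Nfic, which encodes a nuclear factor I transcription factor, and Lhpp, a phosphatase gene, had LPS means of 23.7% and 15.3% of the untreated mean. Krt78, a keratin gene, had 2 members, and the stronger had 345, 324 and 588 with late IL-10, 332, 433 and 775 with continuous IL-10, 264, 442 and 856 with LPS and 1678, 1576 and 2539.8 in untreated cells.

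The 8 members with the largest difference were at the other extreme, with the stimulated libraries at or near 1 read. At chr8:83045842-83062286 over Rnf150, all LPS and late IL-10 libraries were at 1 read, against 1631, 1739.7 and 1209 in untreated cells. Continuous IL-10 replicate 3 had 11 reads there and the other continuous IL-10 libraries 1 read. The value was at least 371-fold lower with LPS than in untreated cells, counted against 3 reads in each LPS library, a bound that holds for the deposited values only. At Kmo, the gene of kynurenine 3-monooxygenase, and the overlapping opsin gene Opn3, all 9 stimulated libraries were at 1 read, against 1078, 1017 and 776 in untreated cells, at least 233-fold lower with LPS.

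All 9 stimulated libraries were also at 1 read over Senp2, a SUMO protease gene (against 876, 783 and 1186 in untreated cells), Kcnq3, a potassium channel gene (against 665, 652 and 794), and Ric8b, a chaperone gene of G protein alpha subunits (against 683, 735 and 209). Stab2, which encodes a hyaluronan scavenger receptor, had 4 reads in late IL-10 replicate 1, 18 reads in LPS replicate 1 and 1 read in the other stimulated libraries, against values of 1609, 1201 and 1328 in untreated cells. Efcab11 had at most 10 reads in any stimulated library, against values of 981, 1175 and 926 in untreated cells.

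Tlr5, the receptor of bacterial flagellin, was a member at all of its regions. The region that holds its start, chr1:182949587-182963683, had 1 read in every stimulated library, against values of 609, 746 and 401 in untreated cells, at least 142-fold lower with LPS. A second region 7.03 kb from the gene at chr1:182934343-182947725 again had 1 read in every stimulated library, against 388, 529 and 166 in untreated cells. Summed over its 3 members, Tlr5 had 5.28, 5.38 and 2.66 with late IL-10, 5.06, 3.81 and 13.8 with continuous IL-10, 5.9, 5.04 and 2.32 with LPS and 1087, 1372 and 657 in untreated cells.

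**Figure D4:**
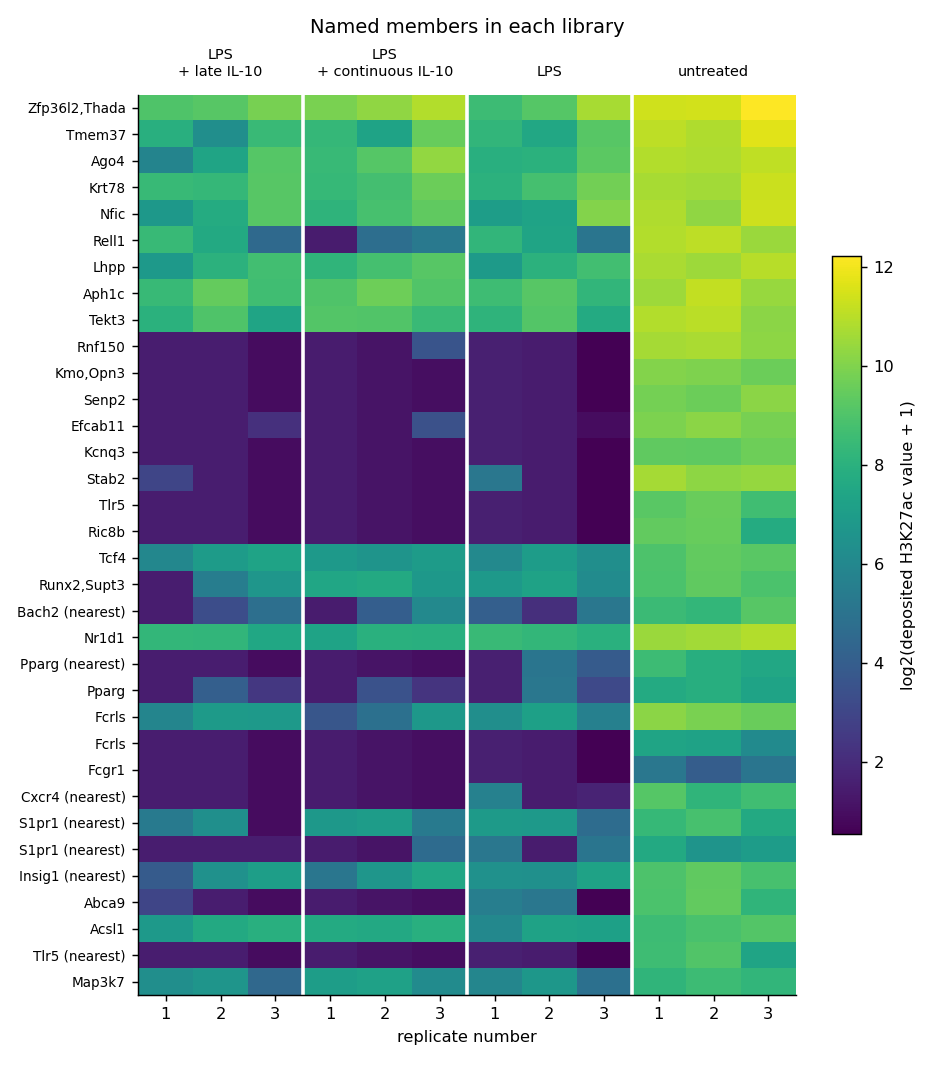
Heat map of log2(deposited value + 1) for 34 named members in the 12 libraries, with rows in the order of the highest untreated level, the largest difference and the gene lists, and columns by group and replicate number. The first 9 rows stay measurable in most stimulated libraries, while the rows from Rnf150 to Ric8b are at or near 1 read in nearly all of them.

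The gene lists below were chosen with earlier results of these data known. Over all regions under 20000 bp, 9.19% were members, and over all 14448 genes with such a region, 2344 (16.2%) had at least 1. Of the lists examined, receptors for chemoattractants and purines had the highest share, with 15 of 63 regions (23.8%) in 5 of 19 genes. The median LPS minus untreated difference of their 63 regions was -1.04, against -0.02 over all regions. The 63 include the 15 members, which the rule chose for this difference, so the median is no separate support. At Cxcr4, the receptor of the chemokine CXCL12, 7 of 12 assigned regions were members, and none of the 7 overlapped the gene. They lay over 188 kb from position 128506144 to 128693729 of chromosome 1. Their summed value was 12.3, 12.5 and 6.2 with late IL-10, 11.8, 8.89 and 15.8 with continuous IL-10, 63.0, 11.8 and 5.1 with LPS and 1028, 489 and 749.9 in untreated cells. All stimulated libraries were far below all untreated ones, which the rule sets for LPS, and LPS replicate 1 was the highest stimulated library.

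S1pr1, the receptor of sphingosine 1-phosphate, had 5 members among 9 regions, with a sum of 47.5, 87.8 and 5.31 with late IL-10, 115, 133 and 69.0 with continuous IL-10, 167, 124 and 59.4 with LPS and 678, 650.5 and 414 in untreated cells. Late IL-10 was the lowest group in each replicate number. Its strongest member, chr3:115760179-115767197, had 38.7, 80.6 and 0.886 with late IL-10, 108, 128 and 40.4 with continuous IL-10, 120.0, 118 and 24.6 with LPS and 330.1, 453 and 201 in untreated cells. P2rx7 and Ptger4, receptors of extracellular ATP and prostaglandin E2, had 1 member each.

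**Figure D5:**
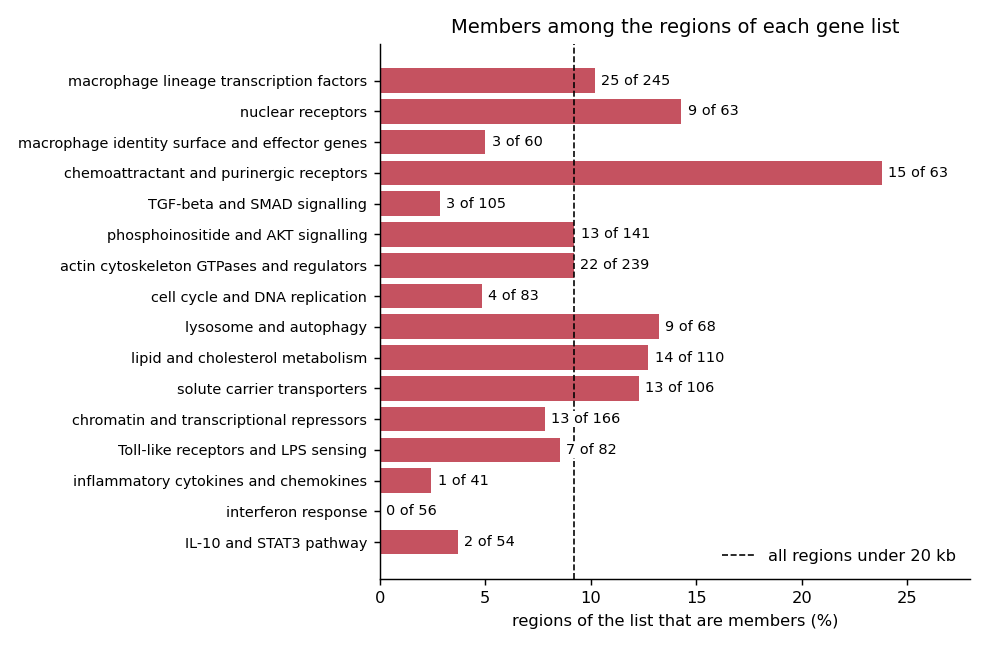
Bar chart of the share of each gene list's regions under 20000 bp that are members (x axis, percent), with the number of members and of regions beside each bar and a dashed line at the 9.19% of all regions. Chemoattractant and purinergic receptors reach 23.8% and nuclear receptors 14.3%, while inflammatory cytokines and chemokines have 1 of 41 and the interferon response 0 of 56. Regions higher with LPS cannot be members, so the low shares of these induced lists follow from the rule.

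Of the Toll-like receptor and LPS sensing list, 7 of 82 regions (8.54%) were members, in Tlr5, Ticam2 and Map3k7. Map3k7 encodes the kinase TAK1 downstream of these receptors. Of its 7 regions 3 were members, and the one at chr4:32007559-32014156 had 79.2, 98.5 and 21.3 with late IL-10, 132, 151 and 71.9 with continuous IL-10, 59.0, 106 and 28.3 with LPS and 293, 378 and 301 in untreated cells, and continuous IL-10 lay 0.99 above LPS, at the edge of the rule.

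Transcription factors of the macrophage lineage had 25 of 245 regions (10.2%) among the members, in 12 of 33 genes. Cebpa, which encodes a factor that directs myeloid cells, had all 4 of its regions under 20000 bp among them, within 23.6 kb of chromosome 7 and none overlapping the gene. Their sum was 7.04, 7.17 and 3.54 with late IL-10, 6.74, 5.08 and 33.5 with continuous IL-10, 7.87, 6.72 and 16.7 with LPS and 612, 625 and 443 in untreated cells, and 3 of the 4 were at 1 read in all stimulated libraries. A further region assigned to Cebpa was 20000 bp or wider and so outside the rule. Bach2, a repressor gene, had 6 members among 24 regions, with a sum of 146, 129 and 120.5 with late IL-10, 214, 118 and 191 with continuous IL-10, 167, 65.5 and 177 with LPS and 1011, 867 and 1327 in untreated cells.

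Runx2, the gene of a runt-related factor, overlapped a member shared with Supt3 at chr17:44781271-44793100. It had 1.76, 44.8 and 102 with late IL-10, 174, 202 and 108 with continuous IL-10, 114, 155 and 72.3 with LPS and 489.9, 657 and 481 in untreated cells, and the late IL-10 libraries spread from 1 read to the LPS level. Tcf4, which encodes an E protein, had 2 members among 17 regions, 1 of them with 61.6, 124 and 158 with late IL-10, 113, 95.3 and 122 with continuous IL-10, 64.9, 129 and 77.9 with LPS and 507, 678 and 604 in untreated cells. The 3 stimulated groups overlapped there and all lay below the untreated one, which the rule sets for LPS. Irf8, Klf2, Maf, Mef2a, Mef2c, Runx1, Tcf7l2 and Tfec also had members, 1 to 3 each.

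Nuclear receptor genes had 9 of 63 regions (14.3%) among the members, in Pparg, Nr1d1, Rora and Esr1. Pparg, a lipid-activated receptor known from resting and alternatively activated macrophages, had 6 members among 9 regions over 159 kb of chromosome 6. The 6 summed to 45.8, 59.1 and 8.86 with late IL-10, 10.1, 34.3 and 33.5 with continuous IL-10, 35.4, 126 and 30.6 with LPS and 997, 717 and 546 in untreated cells. At chr6:115501306-115507171, 10.9 kb from the gene, all 6 IL-10 libraries were at 1 read, while LPS gave 1.97, 33.6 and 13.9 and untreated cells 371, 236 and 188. Nr1d1 encodes REV-ERB alpha, a haem-binding repressor of the circadian clock, and the region over its start had 308, 297 and 179.8 with late IL-10, 162, 246 and 243 with continuous IL-10, 354, 308 and 249.9 with LPS and 1423, 1567 and 1883 in untreated cells. All 9 stimulated libraries lay far below the lowest untreated one, which the rule sets for LPS.

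Surface and effector genes of macrophage identity had 3 of 60 regions (5.00%) among the members, in Fcrls and Fcgr1. The region over the start of Fcrls, an Fc receptor-like gene known as a marker of microglia, had 58.1, 120.0 and 118 with late IL-10, 11.8, 27.9 and 109 with continuous IL-10, 78.7, 146 and 48.7 with LPS and 1186, 952 and 745 in untreated cells. A neighbouring member over the same gene had 1 read in every stimulated library, against 165, 155 and 69.1 in untreated cells. The Fcgr1 member was a weak region of 2116 bp, with 1 read in every stimulated library, against 35.3, 15.1 and 32.7 in untreated cells. Of the dendritic cell markers, Flt3 and Siglech had a member each, both at 1 read in every stimulated library, against 271, 248 and 433 at Flt3 and 117, 75.6 and 10.5 at Siglech in untreated cells. The summed dendritic cell list overlapped between groups, at 4634 to 11361 with late IL-10, 3451 to 6272 with continuous IL-10, 4802 to 13064 with LPS and 6703 to 8481 in untreated cells. Cd4, the only T cell marker with a member, had 1.76, 1.79 and 7.97 with late IL-10, 1.69, 19.1 and 13.8 with continuous IL-10, 25.6, 1.68 and 21.8 with LPS and 208, 155 and 58.2 in untreated cells.

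Small GTPases of the actin cytoskeleton and their regulators had 22 of 239 regions (9.21%) among the members, spread over 14 of 28 genes. Arhgap18, a GTPase-activating protein gene, had 2 members, 1 of them with 113, 133 and 131 with late IL-10, 244, 218 and 292 with continuous IL-10, 197, 173 and 96.5 with LPS and 1102, 1634 and 907 in untreated cells. Fgd3, an exchange factor gene, had 1 member, with 65.2, 1.79 and 188 with late IL-10, 137, 325 and 451 with continuous IL-10, 161, 158 and 268 with LPS and 937, 971 and 1191 in untreated cells. In both regions continuous IL-10 lay above LPS, by 0.74 and 0.52, and late IL-10 differed from LPS by -0.25 and -2.55.

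Phosphoinositide and AKT signalling genes had 13 of 141 regions (9.22%), 5 of them at Rptor and 4 at Foxo3, the gene of a forkhead factor that AKT keeps out of the nucleus. The 4 summed to 12.3, 44.8 and 3.54 with late IL-10, 32.0, 8.89 and 14.8 with continuous IL-10, 39.4, 25.2 and 23.6 with LPS and 508, 427 and 482 in untreated cells. Rptor, which encodes the Raptor subunit of mTORC1, had 5 members among 16 regions, and the one at chr11:119706918-119716776 had 1.76, 28.7 and 90.3 with late IL-10, 1.69, 156 and 193 with continuous IL-10, 51.2, 195 and 271 with LPS and 523, 624 and 646 in untreated cells. LPS replicate 1 and both replicate 1 libraries with IL-10 were the lowest of their groups there. TGF-beta and SMAD signalling had 3 of 105 regions (2.86%), 1 each at the receptor genes Bmpr2 and Tgfbr2 and the ubiquitin ligase gene Smurf2.

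Lipid and cholesterol genes had 14 of 110 regions (12.7%) among the members, in 11 of 26 genes with a region. Abca9, an ABC transporter gene, had 7.04, 1.79 and 0.886 with late IL-10, 1.69, 1.27 and 0.986 with continuous IL-10, 45.3, 35.3 and 0.464 with LPS and 488, 693 and 290.1 in untreated cells over its start. LPS replicates 1 and 2 lay above all 6 IL-10 libraries. Near Insig1, which encodes a sterol sensor of the endoplasmic reticulum, a region had 14.1, 87.8 and 138 with late IL-10, 33.7, 102 and 178 with continuous IL-10, 86.6, 84.0 and 153 with LPS and 508, 657 and 453 in untreated cells. Acsl1, an acyl-CoA synthetase gene, had 1 member among 10 regions, with 113, 199 and 241 with late IL-10, 207, 191 and 244 with continuous IL-10, 63.0, 156 and 147 with LPS and 382, 470.2 and 543 in untreated cells, and the continuous IL-10 mean was 46.0% of the untreated mean.

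Of 175 miRNA hairpins inside regions under 20000 bp, 10 (5.71%) lay inside a member. One is Mir33, in an intron of the sterol regulator gene Srebf2, and its products are printed because miR-33 is known to target the cholesterol exporter ABCA1. Capitals mark the seed, bases 2 to 8 from the 5′ end, from RefSeq on build GRCm38.p6.
mmu-miR-33-5p (chr15:82198127-82198147, plus strand): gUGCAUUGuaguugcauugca
mmu-miR-33-3p (chr15:82198167-82198188, plus strand): cAAUGUUUccacagugcaucac

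The member that holds Mir33, chr15:82196139-82198503, had 1.76, 1.79 and 0.886 with late IL-10, 1.69, 7.62 and 0.986 with continuous IL-10, 1.97, 1.68 and 0.464 with LPS and 74.2, 17.6 and 32.2 in untreated cells. Only continuous IL-10 replicate 2 was above 1 read among the stimulated libraries. It was chosen after its values were seen, and the mark over the hairpin says nothing of the level of the miRNA.

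Lysosome and autophagy genes had 9 of 68 regions (13.2%) among the members. Atp6v1a, a subunit gene of the proton pump that acidifies lysosomes, had 2 members, 1 of them with 203, 444 and 257 with late IL-10, 300.1, 369.6 and 312 with continuous IL-10, 303, 482 and 172 with LPS and 1739, 2226 and 1165 in untreated cells, so both IL-10 groups overlapped LPS. Man2b1, the lysosomal mannosidase gene, shares its region with Wdr83 and Wdr83os and had an LPS mean of 26.5% of the untreated mean. A region 3.18 kb from Atp6v0d2, another pump subunit gene, was at 1 read in every stimulated library, against 111, 122 and 62.0 in untreated cells. Solute carriers had 13 of 106 regions (12.3%), and Slc9a9, an endosomal sodium-proton exchanger gene, had 6 of them. Its members summed to 10.6, 10.8 and 50.5 with late IL-10, 21.9, 90.2 and 92.6 with continuous IL-10, 61.0, 89.1 and 60.3 with LPS and 1217, 1190.0 and 826 in untreated cells.

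Chromatin and repressor genes had 13 of 166 regions (7.83%). A region 2.37 kb from Ezh1, a histone H3 lysine 27 methyltransferase gene, had 1.76, 1.79 and 29.2 with late IL-10, 1.69, 1.27 and 7.88 with continuous IL-10, 1.97, 1.68 and 24.1 with LPS and 303, 332 and 486 in untreated cells. In the stimulated groups, values above 1 read came from the replicate 3 libraries, which had the most reads of their groups. Hdac4, a class IIa deacetylase gene, had 1 member among 12 regions, with 8.81, 1.79 and 44.3 with late IL-10, 1.69, 1.27 and 0.986 with continuous IL-10, 23.6, 1.68 and 7.42 with LPS and 165, 275 and 150.3 in untreated cells. Cell cycle and replication genes had 4 of 83 regions (4.82%), at Mcm2, Cdc6, E2f2 and E2f3. Mcm2, a helicase subunit gene, had 49.3, 145 and 322 with late IL-10, 317, 248 and 509.6 with continuous IL-10, 92.5, 111 and 641 with LPS and 1137, 1146 and 1690.2 in untreated cells, in a region shared with Tpra1.

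The lists that LPS is known to induce were nearly empty of members. A region higher with LPS cannot be a member, so these low shares follow from the rule and are no separate result. Inflammatory cytokines and chemokines had 1 of 41 regions (2.44%), and 29 of the 41 were higher with LPS by 2 or more. The exception was Ccl17, a chemokine gene, whose region of 2414 bp had 1 read in all 6 IL-10 libraries, 1.97, 11.8 and 18.5 with LPS and 34.6, 47.9 and 36.4 in untreated cells. Interferon response genes had 0 of 56, with 36 of 56 higher by 2 or more. The IL-10 and STAT3 pathway had 2 of 54 regions (3.70%), at the kinase gene Jak1 and the phosphatase gene Ptpn2. The Jak1 member, 1 of 16 regions, had 1 read in every stimulated library but late IL-10 replicate 2, which had 6 reads, against values of 99.7, 139.9 and 67.4 in untreated cells.

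Of the 2344 genes with a member, 1696 had 1, 414 had 2 and 234 had 3 or more. Genes with many regions can have many members, so the number of regions is given beside each. Rad51b, a recombination gene, had 11 members among 30 regions, 10 of them overlapping the gene over 248 kb of chromosome 12. They summed to 155, 35.8 and 9.74 with late IL-10, 25.3, 26.7 and 11.8 with continuous IL-10, 43.3, 40.3 and 5.1 with LPS and 959, 812 and 338 in untreated cells, and late IL-10 replicate 1 stood above the other stimulated libraries. Chn2, which encodes a Rac GTPase-activating protein, had 9 members among 15 regions, all over the gene. The 9 summed to 22.9, 16.1 and 33.7 with late IL-10, 15.2, 19.1 and 69.0 with continuous IL-10, 138, 116 and 169 with LPS and 2273, 1668 and 1738 in untreated cells. Both IL-10 groups lay below LPS in every replicate number.

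Msra, a methionine sulfoxide reductase gene, had 8 members among 12 regions, with 264, 409 and 128 with late IL-10, 229, 163 and 26.6 with continuous IL-10, 299, 289 and 84.4 with LPS and 4047, 5319 and 2203 in untreated cells. Snx29, a sorting nexin gene, had 9 among 21, with 315, 262 and 706 with late IL-10, 443, 638 and 857 with continuous IL-10, 464, 324 and 561 with LPS and 3303, 2423 and 3121 in untreated cells. Grap2, an adaptor gene, had all 5 of its regions among the members, with 8.81, 8.96 and 50.5 with late IL-10, 8.43, 6.35 and 11.8 with continuous IL-10, 37.4, 8.4 and 60.7 with LPS and 422, 352 and 702 in untreated cells. At these 3 genes every stimulated sum lay below every untreated one, which the rule sets for LPS and nearly so for IL-10. Frmd4a had 8 among 20, and Cpeb3, Mcph1, Rnf144b, Slc25a13 and Tmem154 had 7 each, among 14, 9, 9, 10 and 9 regions.

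The same genes also held regions that did not follow the members. Of the 2344 genes, 2030 also had other regions under 20000 bp, and in 672 of those (33.1%) at least 1 other region was higher with LPS by 2 or more. The other regions of the same genes numbered 8005, with a region counted once for each of its genes. Of these, 15.2% were higher by 2 or more and 19.2% were lower by 2 or more. The shares were 21.2% and 12.3% of all regions that are not members, where each region counts once. At Mef2a, a transcription factor gene of the MADS family, 2 of 11 regions were members and 6 of the other 9 were higher with LPS by 2 or more. At Dock10, an exchange factor gene, 1 of 20 was a member and 8 of the other 19 were higher. Both genes were picked after their values were seen.

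Members also lay next to each other. The next region along the chromosome was itself a member for 27% of members, against 9.23% of all regions under 20000 bp. It was lower with LPS by 2 or more for 45% against 20.5%, and higher by 2 or more for 6.30% against 19.2%. The median gap to the next region was 6290 bp for members and 5981 bp for all, so spacing was close to that of all regions. By position, 60.5% of members overlapped a protein-coding gene, against 67.2% of all regions, and 6.18% had none within 100 kb, against 7.08%. Over the chromosomes the share of regions that were members went from 4.94% on the X chromosome to 11.7% on chromosome 14, with 0 of 34 on Y.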

How the data were processed

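The authors deposited 1 table of H3K27ac signal, with a value per consensus region for each of 12 libraries. The mm10 build is named in the submitters' processing notes, as are the tools DiffBind, MACS2, Bowtie2 and Trim Galore, without their order, settings or versions. An input library was not analysed here. Every value (100%) was a whole multiple of its library's lowest value within 0.0001 reads. The unit is therefore a scaled signal and not counts, and limma was used in place of the edgeR test planned for counts.

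The members, gene lists and tests were chosen with earlier results of these data known. Differences are of mean log2(value + 1), which understates the change of weak regions. The contrast of late and continuous IL-10 was fitted with limma 3.58.1 in R 4.3.3 (trend and robust moderation, group as the only term, 12 libraries) over regions above the 10th percentile of mean log2 value, with calls at a Benjamini-Hochberg adjusted p under 0.05. In simulated data over 36621 regions the fit recovered 34% of 100 regions changed 2-fold and 98% of 100 changed 4-fold, with 20 false calls. The changed regions were drawn from those above the median value, with the same spread for all regions and no difference between pools. These rates therefore do not apply to members near 1 read. Alternatives were a pseudocount of 10, no filter, median centring, a replicate block, edgeR 4.0.16 and DESeq2 1.42.0 on recovered reads (edgeR called 661 regions), and leaving out each library. Same-numbered late and continuous IL-10 libraries deviated together (r = 0.258, 0.149 and 0.571 for replicates 1, 2 and 3), and the labels name 3 pools, so the numbers were taken to pair them. The main fit and the p-values printed from it leave this pairing out, and only the replicate block uses it.

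A region was given to all protein-coding genes it overlaps in RefSeq GRCm38.p6, and one that overlaps none to the closest gene up to 100 kb away. Named were the 10 members of highest untreated level, 1 of which is not reported here, and the 8 of largest difference that overlap a gene, up to 3 per gene list, 3 on each side of each bound, the 6 called members of largest difference between the schedules, and genes with 3 or more members. Python 3.11.15 with pandas 2.3.3 was used for the descriptions. Reads recovered per library limit the precision of weak regions.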

Additional observations from a re-analysis of the deposited data

Results flagged for a closer look

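Among the members, 6 regions differed between the schedules of IL-10 in the limma fit and had the largest such differences, all with lower values under late IL-10. The late minus continuous IL-10 difference on the log2 scale was -4.71 nearest to Mrps28, -4.53 nearest to Lyplal1, -4.33 nearest to Rasgrf1, -4.02 over Fer, -4.00 nearest to Gnpda1 and -3.95 at the region of chromosome 2 with no gene within 100 kb. The late IL-10 libraries of the Gnpda1 region had 1.76, 1.79 and 9.74, against 38.8, 74.9 and 112 with continuous IL-10. At the region near Rasgrf1, a gene of a Ras exchange factor, the values were 1.76, 8.96 and 61.1 with late IL-10, against 191, 232 and 311 with continuous IL-10. Near Lyplal1, a lysophospholipase-like gene, the values were 1.76, 30.5 and 0.886 with late IL-10, against 175, 132 and 85.7 with continuous IL-10. In each of the 6 regions the 3 late IL-10 libraries lay below the 3 continuous ones. None of the 6 kept its call when late IL-10 replicate 1 was left out, with differences then of -4.42 to -3.28 and limma adjusted p between 0.0646 and 0.161.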

How the results depend on the processing

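The number of members stayed between 2530 and 4809 under all alternatives but a stricter bound on LPS of -3, which left 2316. A pseudocount of 10 gave 2694 regions, of which 2007 were among the 3574. The median LPS minus untreated difference was -2.70 with a pseudocount of 10 and between -3.47 and -3.27 with each library left out. The median of late IL-10 minus LPS lay between -0.21 (without LPS replicate 3) and 0.30 (without LPS replicate 1), around a value that the scaling of 1 read sets, and the cause was not tested. Between late and continuous IL-10, limma called 992 regions, 16 of them members. With the replicate block it called 4754 and 95, DESeq2 on recovered reads called 3120 and 70, and edgeR called 661 and 11. With each late or continuous IL-10 library left out, the calls ranged from 55 to 2287 over all regions and from 0 to 66 in members, lowest without late IL-10 replicate 1 and highest without late IL-10 replicate 3, and the cause was not tested. No alternative turned the direction of the 6 named differences, but a pseudocount of 10 reduced them to between -3.31 and -2.20, against -4.71 to -3.95. Each of the 6 stayed past the threshold under median centring, no filter, a pseudocount of 10, the replicate block and DESeq2, and 4 did so under edgeR. Leaving out late IL-10 replicate 1 ended all 6 calls, replicate 2 ended 3 and replicate 3 none, and leaving out continuous IL-10 replicates 1, 2 and 3 ended 2, 5 and 5. Reads limit what is seen in weak members, where 1 read is the lowest value of the table.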
